A study of Homo sapiens with 4 samples.

Results

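Hyaluronan is a long sugar polymer of the extracellular matrix, made of repeating glucuronic acid and N-acetylglucosamine. The described genes cover its life cycle: HAS1, HAS2 and HAS3 encode the synthases of the plasma membrane, HYAL1, HYAL2 and HYAL3 encode members of the hyaluronidase family, CEMIP encodes a protein needed for hyaluronan depolymerisation, and CD44 encodes the main cell surface receptor. They were found as the probe sets whose platform annotation gives exactly 1 gene symbol, that symbol being 1 of these 8 (CEMIP could also be written KIAA1199). The rule found 21 of 49293 probe sets, for 6 of the 8 genes. CD44 had 10 probe sets, HAS3 had 4, HAS2 had 3, CEMIP had 2, and HYAL2 and HYAL3 had 1 each. HAS1 and HYAL1 were not analysed here, since the rule found 0 probe sets for them. The genes were chosen by function with earlier results of this same contrast known, in which the CEMIP and HYAL3 values had stood out, so their differences between the vectors are given as a description, with no test.

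The arrays came from U87MG, an established human glioma cell line, in 2 groups of 2 arrays each. In the first, cells carried PC-490, a plasmid for overexpression of the microRNA miR-490, and in the second they carried the control vector PCDNA. RNA was collected 48 h after transfection. Both groups were transfected, so what transfection itself does is shared by both and cannot be seen here, and whether few cells changed much or many cells changed little cannot be told apart in RNA of whole wells. Nothing in the labels ties the replicates to separate cultures, so their spread may be technical.

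Hyaluronan synthesis draws on 2 activated sugars of the cytoplasm, and the synthase passes the growing chain through the plasma membrane as it makes it. Fragments arise when hyaluronidases or CEMIP-dependent depolymerisation cut the chain, and chain length is known to change how receptors respond. In glioma, hyaluronan is a major part of the brain matrix through which tumour cells move, and CD44 on these cells binds it.

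The overexpressed hairpin can give a mature microRNA from either arm, and the labels do not say which arm was active. Both are shown because they are the agent that separates the groups; the capitals mark the seed, bases 2 to 8, which pairs with target messages. The sequences are from RefSeq (GRCh38.p14, plus strand), at chr7:136903242-136903263 for the 3p arm and chr7:136903205-136903224 for the 5p arm.
hsa-miR-490-3p: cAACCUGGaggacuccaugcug
hsa-miR-490-5p: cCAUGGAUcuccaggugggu
The arms have different seeds. Target sites of these seeds in the hyaluronan genes were not analysed here, and the level of miR-490 itself was not analysed here either.

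The values are log2 levels made by RMA, in which a difference of 1 is a doubling. The array medians lay between 5.15 and 5.17. The typical gap between replicates, the median absolute difference over all probe sets, was 0.09 in the miR-490 pair and 0.10 in the control pair. In the limma fit of all 49293 probe sets, 0 (0%) had a Benjamini-Hochberg adjusted p under 0.05 (smallest 0.900), and 2537 (5.15%) had an unadjusted p under 0.05. With 2 arrays against 2, an exact two-sided permutation test of any 1 value cannot go below p = 0.333. Each marker gene is given by its brightest probe set only, which was 1 of 8 for GFAP and 1 of 5 for VWF. Of the glioma markers, VIM, CHI3L1 and GFAP lay above the array median in all 4 arrays, with means of 13.92, 11.12 and 5.71, whereas NES, S100B, SOX2 and OLIG2 lay below it, at 4.15, 3.38, 4.87 and 3.68. The leukocyte markers PTPRC, CD3E, CD14 and LYZ and the epithelial markers EPCAM, CDH1 and KRT18 all lay below the median, at means of 2.43 to 3.69. Other lists were mixed. The neuron markers SNAP25 and SYP, at 8.58 and 6.19, and the endothelial marker VWF, at 5.29, lay above the median in all 4 arrays. The neuron marker RBFOX3 and the endothelial markers PECAM1 and CDH5 lay below it, at 4.08, 4.105 and 3.12. Summed over its 4 genes, the leukocyte list was at 10.98 and 11.39 in the miR-490 arrays, against 11.88 and 12.06 in the control arrays. The means of these genes were only 2.43 to 3.38, near the floor of the arrays, and the arrays are of a cell line. The sums are therefore not read as leukocyte content, and the cause of their difference was not tested.

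**Figure D1:**
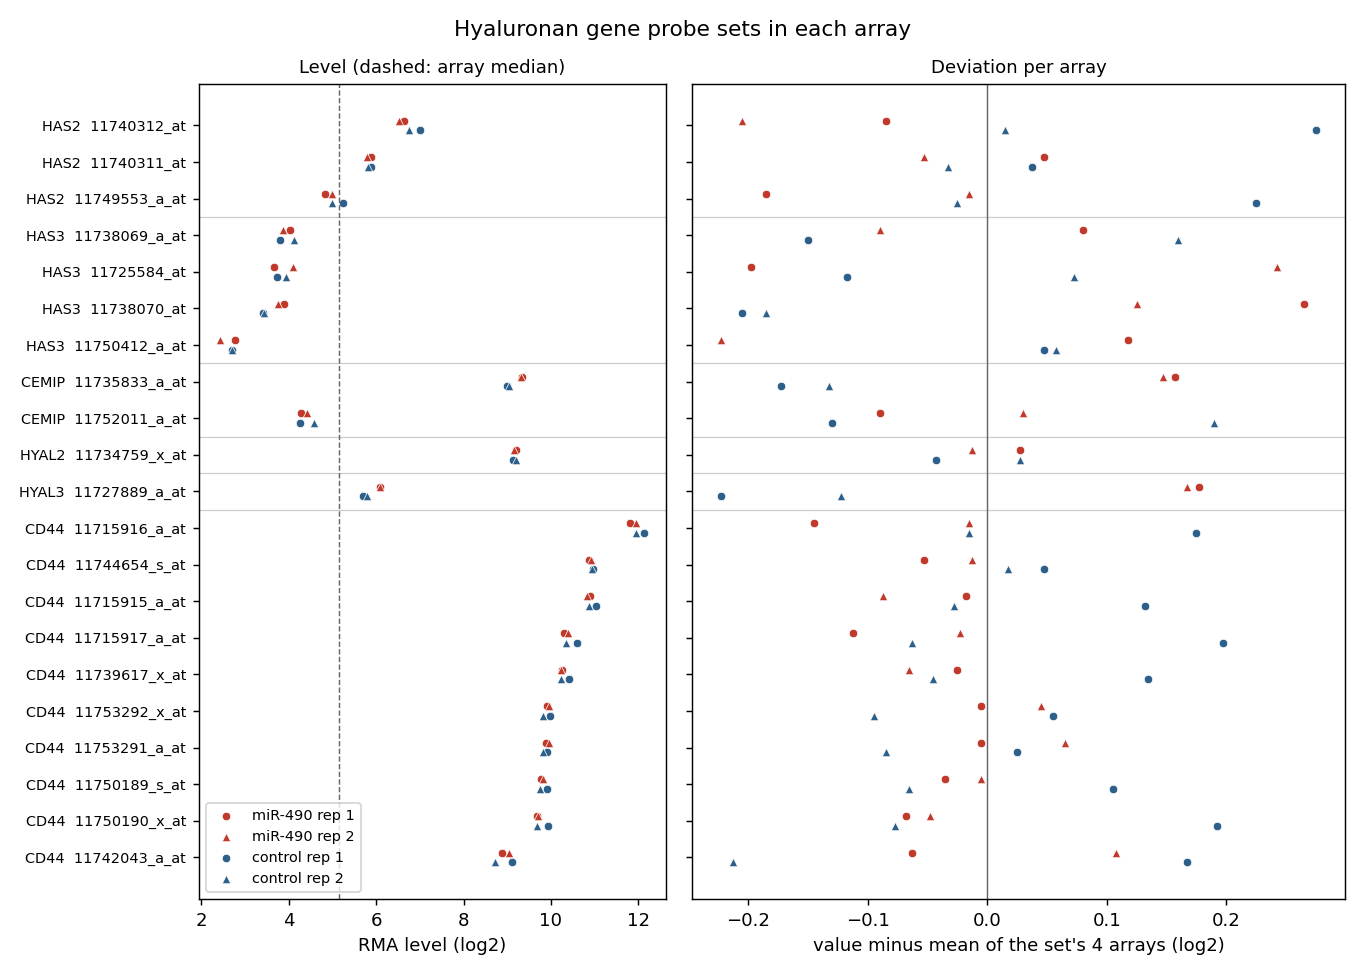
The 21 probe sets of the hyaluronan genes, 1 row each, with miR-490 arrays in red above control arrays in blue. The left panel gives the RMA level (log2) with the array median dashed, and the right panel gives each value minus the mean of that set's 4 arrays (log2). In CEMIP 11735833_a_at and HYAL3 the miR-490 points lie to the right of both control points, and in most CD44 rows control replicate 1 lies alone on the right.

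Across the 21 probe sets no common direction was seen. The miR-490 mean was higher in 8 sets and lower in 13, where 49.7% of all probe sets had a higher and 47.8% a lower mean. Their median difference was -0.04 (log2, miR-490 minus control), beside 0.00 over all probe sets. The 4 values did not overlap between the groups in 5 sets, 3 with miR-490 higher and 2 with miR-490 lower; over all probe sets, 15.6% did not overlap with miR-490 higher and 15.6% with miR-490 lower. A difference of at least 0.25 was seen in 3 sets upwards, of HAS3, HYAL3 and CEMIP, where 2.62% of all probe sets reached it. It was seen in 1 set downwards, of HAS2, where 2.34% of all probe sets reached it. Since the genes were chosen with this contrast known, nothing is read from these shares.

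Among the synthases, HAS2, which makes long chains, had a lower mean in all 3 of its probe sets. Its brightest set, 11740312_at, was at 6.64 and 6.52 in the miR-490 arrays, against 7.0 and 6.74 in the control arrays. Every miR-490 value lay below every control value, although the gap between the control arrays (0.26) was nearly as wide as the difference between the groups. The means were 6.58 ± 0.085 with miR-490 and 6.87 ± 0.18 with the control vector (log2, SD, n = 2), a difference of -0.29, or 0.818 of the control level.

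The second HAS2 set, 11749553_a_at, was at 4.83 and 5.0 in the miR-490 arrays, against 5.24 and 4.99 in the control arrays, a difference of -0.20. Here the groups overlapped, with control replicate 1 highest, miR-490 replicate 1 lowest and the other arrays between them. The set 11740311_at was at 5.89 and 5.79 with miR-490, against 5.88 and 5.81 with the control vector, so the groups were interleaved and differed by -0.005. The sets thus gave folds of 0.818, 0.871 and 0.997 for 1 gene, and in all 3 of them control replicate 1 was above control replicate 2. Without control replicate 1 the differences were -0.16, -0.075 and 0.03, in the same order, so the last changed sign. An antisense RNA gene, HAS2-AS1, overlaps HAS2 in the RefSeq gene table and has no probe set of its own under the single-gene annotation.

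HAS3, the synthase known for shorter chains, lay below the array median in all arrays and all 4 of its probe sets, at 2.42 to 4.11. The set 11738070_at was at 3.89 and 3.75 in the miR-490 arrays, against 3.42 and 3.44 in the control arrays. Its groups did not overlap, and the difference of 0.39, a fold of 1.31, was the largest among the 21 sets. The means were 3.82 ± 0.099 with miR-490 and 3.43 ± 0.014 with the control vector (log2, SD, n = 2).

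The other sets of HAS3 did not share that difference. The set 11738069_a_at was at 4.03 and 3.86 with miR-490, against 3.80 and 4.11 with the control vector, and 11725584_at at 3.66 and 4.10, against 3.74 and 3.93. The set 11750412_a_at was at 2.76 and 2.42 with miR-490, against 2.69 and 2.70 with the control vector. In each of these 3 the groups overlapped, with differences of -0.01, 0.045 and -0.105. Among the 7423 probe sets whose mean lay within 0.5 of that of 11738070_at, 5.32% were higher by at least 0.25 with miR-490, beside 2.62% over all probe sets. In that window the median gap between replicates was 0.13 in the miR-490 pair and 0.14 in the control pair, beside 0.09 and 0.10 over all probe sets. The cause of the larger share was not tested. Values this low lie near the floor of the arrays, where RMA compresses differences.

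On the side of breakdown, CEMIP separated the groups in its bright probe set and not in its dim one. CEMIP, also known as KIAA1199 or HYBID, is required for hyaluronan depolymerisation in skin and synovial fibroblasts. Its bright set, 11735833_a_at, was at 9.33 and 9.32 in the miR-490 arrays, against 9.0 and 9.04 in the control arrays. The miR-490 pair differed by 0.01 and the control pair by 0.04, both far less than the distance between the groups. The means were 9.325 ± 0.0071 with miR-490 and 9.02 ± 0.028 with the control vector (log2, SD, n = 2), a difference of 0.305 and a fold of 1.24.

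At that level such differences were rare: of 3069 probe sets with a mean within 0.5 of it, 2 (0.0652%), this set included, were higher by at least 0.25 with miR-490, and 10 (0.326%) were lower by as much. The gene was chosen with this difference known, so its rank is a description. With any 1 array left out the difference stayed between 0.285 and 0.325. The other CEMIP set, 11752011_a_at, lay below the array median, at 4.29 and 4.41 with miR-490, against 4.25 and 4.57 with the control vector. Those groups overlapped, and the difference was -0.06. The dim set therefore did not show what the bright set showed, and which transcripts each set detects was not analysed here.

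HYAL3, a hyaluronidase family member whose own enzyme activity is less well established than that of HYAL1 and HYAL2, had 1 probe set, 11727889_a_at. It was at 6.09 and 6.08 in the miR-490 arrays, against 5.69 and 5.79 in the control arrays. The groups did not overlap, and the miR-490 arrays lay 0.01 apart. The means were 6.085 ± 0.0071 with miR-490 and 5.74 ± 0.071 with the control vector (log2, SD, n = 2), a difference of 0.345 and a fold of 1.27. Of 5458 probe sets at a similar level, 1.91% were higher by at least 0.25 with miR-490. With any 1 array left out the difference stayed between 0.295 and 0.395. In the RefSeq gene table HYAL3 overlaps NAA80, an acetyltransferase gene with no single-gene probe set, and signal from the overlap was not separated here. Signal from overlaps was not separated for other members either. CEMIP overlaps MESD, LOC124903539 and MIR549A, HAS3 overlaps TANGO6, DERPC and CHTF8, and CD44 overlaps SNORD164 and CD44-AS1. Of these genes, MESD, TANGO6 and CHTF8 have single-gene probe sets (5, 2 and 1), which were not compared with those of the members here.

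HYAL2, the membrane-anchored hyaluronidase that makes the first cuts in long chains, also had 1 probe set, 11734759_x_at. It was at 9.20 and 9.16 in the miR-490 arrays, against 9.13 and 9.20 in the control arrays. The groups overlapped, with means of 9.18 ± 0.028 with miR-490 and 9.165 ± 0.049 with the control vector (log2, SD, n = 2) and a difference of 0.015. The suffix x marks sets with probes that may also bind other transcripts. HYAL2 and HYAL3 are neighbours in 1 cluster of hyaluronidase genes, yet the set of HYAL3 differed by 0.345 and that of HYAL2 by 0.015; that the differences are unequal was not tested.

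CD44 was bright in this line, above the array median in all 10 of its probe sets, at 8.72 to 12.14. Its mean was lower with miR-490 in 7 sets and higher in 3, with a median difference of -0.078 (0.948 of the control level) and a range of -0.16 to 0.06. The groups overlapped in 9 of the 10 sets. The brightest set, 11715916_a_at, was at 11.82 and 11.95 in the miR-490 arrays, against 12.14 and 11.95 in the control arrays, a difference of -0.16, so that only control replicate 1 stood above the rest. The set without overlap, 11744654_s_at, was at 10.87 and 10.91 with miR-490, against 10.97 and 10.94 with the control vector, a difference of -0.065. The set furthest in the other direction, 11753291_a_at, was at 9.89 and 9.96 with miR-490, against 9.92 and 9.81 with the control vector, a difference of 0.06.

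In 9 of the 10 CD44 sets the gap between the control arrays was larger than the difference between the vectors, the exception being 11744654_s_at, with a gap of 0.03 and a difference of -0.065. Control replicate 1 was above control replicate 2 in 10 of 10 sets, by 0.03 to 0.38 with a median of 0.175, while the miR-490 arrays differed by -0.17 to 0.07 (replicate 1 minus replicate 2). The sets detect messages of 1 gene and are not independent. Over all probe sets in the level range of CD44, control replicate 1 was above control replicate 2 in 53.7% of 4737. Of 86 genes with at least 10 single-gene probe sets, 3, or 3.49%, had control replicate 1 above replicate 2 in every set, CD44 among them. Without control replicate 1 the median CD44 difference was 0.01, with 5 sets higher, 4 lower and 1 at 0. Without control replicate 2 it was -0.16, with 1 set higher and 9 lower. Without control replicate 1 the CD44 sets thus had no shared direction.

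**Figure D2:**
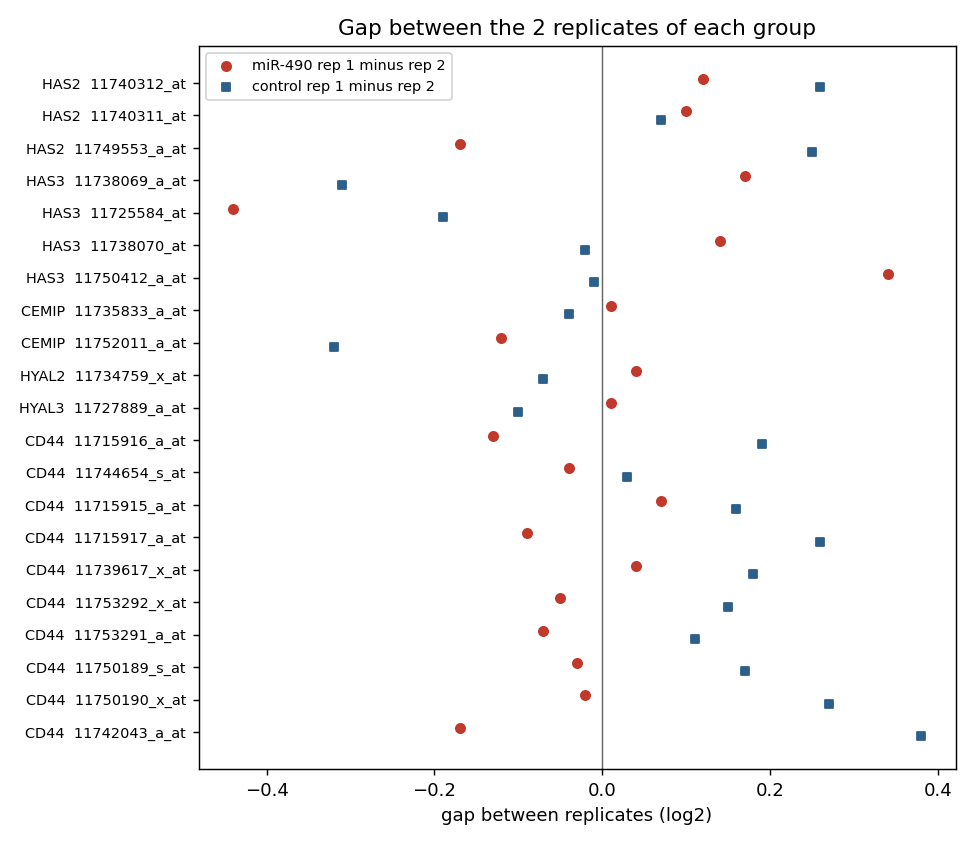
Gap between replicate 1 and replicate 2 (log2) for each probe set of the hyaluronan genes, miR-490 as red circles and control as blue squares. The control gap is above 0 in all 10 CD44 and all 3 HAS2 sets and below 0 in all sets of HAS3, CEMIP, HYAL2 and HYAL3.

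Control replicate 1 was the higher control in 13 of the 21 sets, where it was higher in 44.8% of all probe sets. The 13 sets belong to only 2 genes, HAS2 and CD44, and it was the lower control in the sets of HAS3, CEMIP, HYAL2 and HYAL3. Left out, it moved the brightest HAS2 difference from -0.29 to -0.16, the bright CEMIP difference from 0.305 to 0.285 and the HYAL3 difference from 0.345 to 0.295. The cause of these gaps was not tested.

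**Figure D3:**
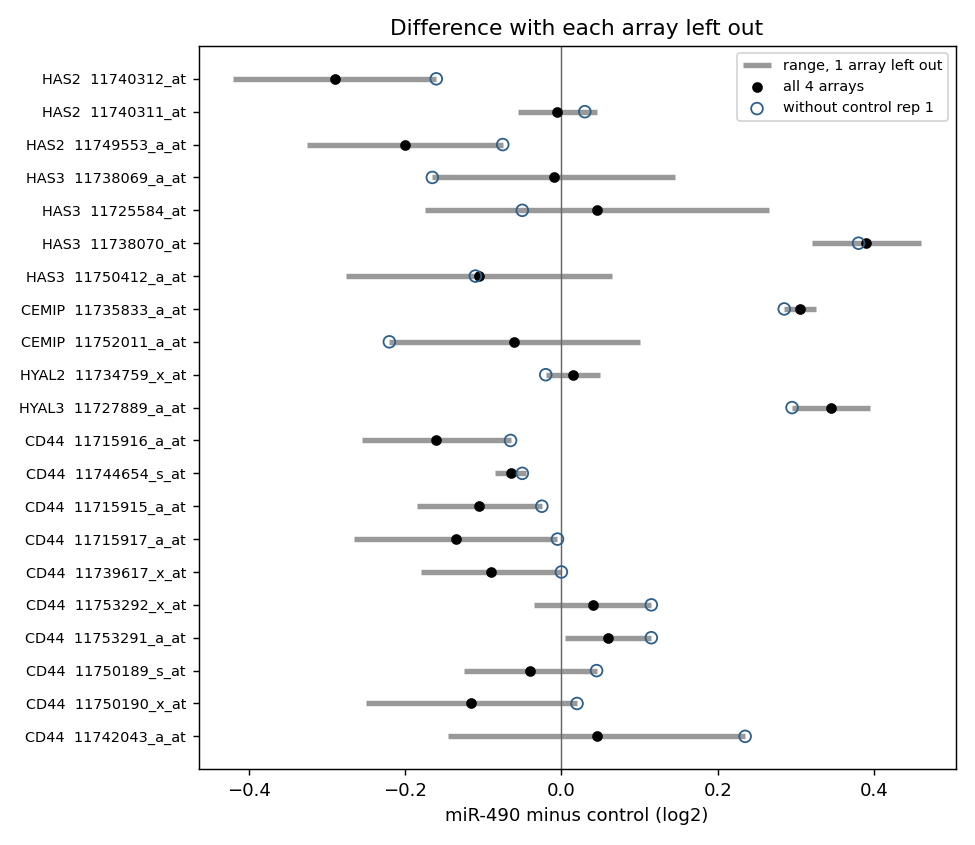
Difference of miR-490 minus control (log2) for each probe set with all 4 arrays (black), its range with 1 array left out in turn (grey bars) and its value without control replicate 1 (open blue circles). The bars of CEMIP 11735833_a_at, HYAL3 and HAS3 11738070_at stay above 0 and that of HAS2 11740312_at stays below 0, while 5 of the 10 CD44 sets lie above 0 without control replicate 1, against 3 with all 4 arrays.

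Genes around the same pathway, in 5 lists of 47 genes of which 43 were measured with 134 probe sets, showed no call. In the limma fit of all probe sets, 0 of the 134 sets passed in either direction, and 3 higher and 4 lower sets had an unadjusted p under 0.05, together 5.22%, beside 5.15% over all probe sets. Their median difference was -0.02, beside 0.00 over all probe sets. The sets with the smallest p in each list are given as values, with an adjusted p of 0.900 to 0.937 (limma). The genes of the precursor list supply the activated sugars; 5 of its 14 sets had a higher and 9 a lower mean, with a median of -0.04. PGM1, which interconverts glucose phosphates, was at 10.33 and 10.35 with miR-490, against 10.24 and 10.22 with the control vector. GFPT1, which starts hexosamine synthesis, was at 8.43 and 8.36 with miR-490, against 8.48 and 8.52 with the control vector, in 11757975_s_at, and at 7.60 and 7.61, against 7.72 and 7.65, in 11720222_at.

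In the list of other breakdown genes 18 of 19 sets had a lower mean, where 47.8% of all probe sets did, with a median difference of -0.065 and a range of -0.135 to 0.12. The 19 sets belong to 5 genes, 6 of them to CEMIP2, so they are not independent, and in 4 of them the groups did not overlap. CEMIP2, also called TMEM2, is a membrane relative of CEMIP described in mouse cells as degrading hyaluronan at the cell surface. All 6 of its sets had a lower mean, with differences of -0.10 to -0.025, and in 5 of them the groups overlapped. Its set with the smallest p, 11741536_x_at, was at 6.65 in both miR-490 arrays, against 6.79 and 6.71 in the control arrays. SPAM1, the sperm hyaluronidase, lay below the array median and had differences of -0.135 to -0.09 in its 3 sets.

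Of the other receptors, 12 of 17 sets had a higher and 5 a lower mean, with a median of 0.055. HMMR, a hyaluronan-binding protein that also works at the mitotic spindle, had a higher mean in all 4 of its sets, by 0.055 to 0.18. Its set with the smallest p, 11741032_a_at, was at 6.22 and 6.24 with miR-490, against 6.05 and 6.07 with the control vector, a difference of 0.17 with a standard error of 0.064 (limma adjusted p 0.900). STAB2, the scavenger receptor of sinusoidal endothelium, was dim at 2.59 and 2.67 with miR-490, against 2.80 and 2.76 with the control vector.

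The matrix binders organise hyaluronan outside the cell; 24 of their 39 sets had a higher and 15 a lower mean, with a median of 0.07. PTX3 and TNFAIP6, which are known to help crosslink hyaluronan, were on the lower side. PTX3, a pentraxin, was at 9.75 and 9.74 with miR-490, against 10.11 and 9.96 with the control vector, a difference of -0.29 with a standard error of 0.080 (limma adjusted p 0.900). TNFAIP6, which transfers heavy chains onto hyaluronan, was at 8.18 and 8.06 with miR-490, against 8.35 and 8.42 with the control vector, a difference of -0.265 with a standard error of 0.078 (limma adjusted p 0.900). Each had 1 probe set, and in each the groups did not overlap. ACAN, the cartilage proteoglycan, was dim, at 3.29 and 3.43 with miR-490, against 3.08 in both control arrays, in 11761169_at.

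The partners of CD44 had 11 sets with a higher and 33 with a lower mean of 45, and a median of -0.03. RDX, which links CD44 to actin, was at 5.19 and 5.20 with miR-490, against 5.54 and 5.39 with the control vector, in 11748968_x_at, while its 7 other sets ranged from -0.215 to 0.12. ADAM17, a protease that sheds surface proteins, was dim in the set with the smallest p, 11762039_at, at 2.61 and 2.53 with miR-490, against 2.77 and 2.97 with the control vector, and its 3 other sets lay between -0.03 and 0.085. SRGN, a proteoglycan core protein that binds CD44, was at 9.30 and 9.33 with miR-490, against 9.43 and 9.46 with the control vector.

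**Figure D4:**
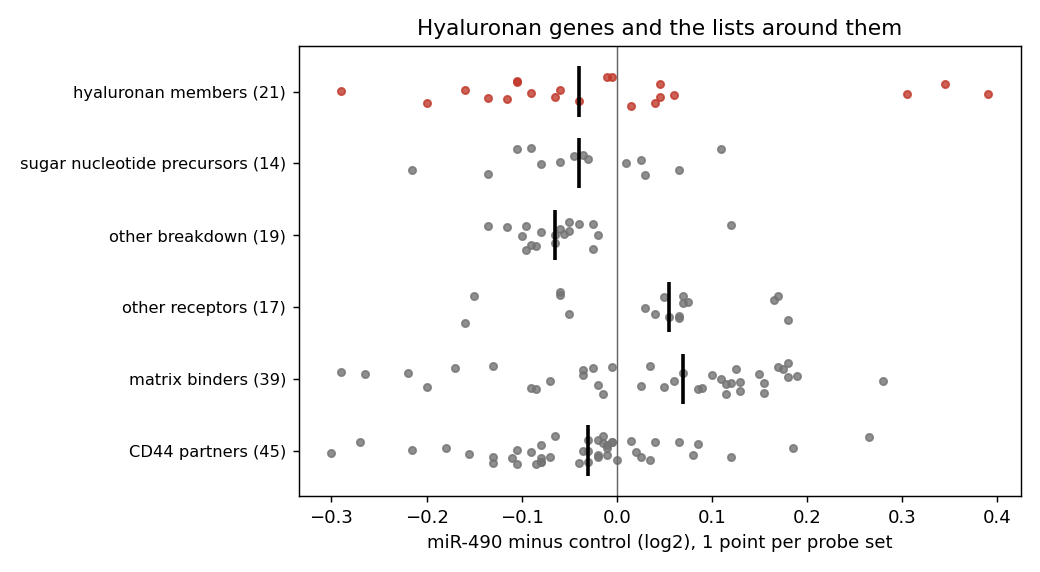
Difference of miR-490 minus control (log2), 1 point per probe set, for the 21 hyaluronan sets (red) and the 5 lists around them (grey), with the number of sets in brackets and the median as a black bar. The medians lie between -0.065 and 0.07, and the ranges of the hyaluronan sets (-0.29 to 0.39) and of the lists overlap.

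Patterns like those of the members were looked for among single-gene probe sets above the array median, as the Euclidean distance between the 4 values after each set was centred on its mean. Nearest to the bright CEMIP set were SPAG5, at a distance of 0.026, AP1B1 at 0.046 and RABIF at 0.047, and 39 of 22051 sets lay within 0.1. Nearest to HYAL3 were ANKRD16 at 0.038, and CEMIP and TRMT1L at 0.058 each, with 19 sets of 22051 within 0.1. Both genes were chosen with these values known, so their likeness to each other is no independent support. For CD44 11715916_a_at the nearest were RBMXL1 at 0.00 and LAPTM4A and MEST at 0.017 each, and 485 of 22042 sets lay within 0.1. Likeness over 4 arrays says nothing of shared function.

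The sequence before the start of CEMIP and HYAL3 is shown because in these genes a set above the array median separated the groups, with miR-490 higher. Windows of 250 bases before the start were read from RefSeq (GRCh38.p14) and searched on both strands for the motif TGANTCA of AP-1, the motif GCGNGGGCG of EGR1 and the NF-kB motif, which were chosen with earlier results known. Capitals mark matches. The CEMIP window is chr15:80779120-80779369 on the plus strand and the HYAL3 window chr3:50299406-50299655 on the minus strand; the HYAL3 start is also that of NAA80.
CEMIP: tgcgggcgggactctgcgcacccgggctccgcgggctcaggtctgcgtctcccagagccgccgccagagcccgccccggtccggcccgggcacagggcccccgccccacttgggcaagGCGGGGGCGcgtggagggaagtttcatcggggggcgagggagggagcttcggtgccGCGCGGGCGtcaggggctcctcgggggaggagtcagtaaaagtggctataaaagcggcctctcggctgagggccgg
HYAL3: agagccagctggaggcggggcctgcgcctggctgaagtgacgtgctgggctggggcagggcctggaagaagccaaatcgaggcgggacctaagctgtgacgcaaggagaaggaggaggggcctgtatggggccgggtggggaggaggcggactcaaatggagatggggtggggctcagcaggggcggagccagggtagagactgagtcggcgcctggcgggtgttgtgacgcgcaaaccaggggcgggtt
The CEMIP window held 2 EGR1 matches, which begin 132 and 76 bases before the start, and the HYAL3 window held no match to any of the 3 motifs. Matches did not overlap. Of 35116 RefSeq windows, 8.41% held the EGR1 motif, 6.57% the AP-1 motif and 5.21% the NF-kB motif. The CEMIP window is 74.4% G and C, against a median of 58% over all windows, and 28.9% of the 7287 windows with at least 70% held the EGR1 motif. Of the 8 windows found for HAS1, HAS3, CEMIP, HYAL1, HYAL2, HYAL3 and CD44, 2 held the EGR1 motif (CEMIP and HAS1), 1 the NF-kB motif (a second start of HYAL3) and 0 the AP-1 motif. A match describes letters and is not evidence of binding.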

How the data were processed

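Biotin-labelled RNA, 100 ng per sample, was hybridised to PrimeView arrays, 2 with the miR-490 vector and 2 with the control vector, grouped by the sample titles. The deposited log2 values per probe set are the authors' RMA output (per the submitters' processing notes). The RMA software and its version were not given in the sources used here. RMA evens out the arrays and compresses dim signals, so a shift of most transcripts cannot be seen. Detection calls and scan dates were not used here, and the number of arrays limits the precision.

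Of 49293 probe sets, 44988 have 1 annotated gene symbol, 1832 several and 2473 none; 44961 of the single-gene sets matched the RefSeq gene table (GRCh38.p14) by Entrez ID and took its symbols. All probe sets were fitted with limma 3.58.1 in R 4.3.3 (lmFit and eBayes, two-sided, Benjamini-Hochberg, threshold 0.05, no covariate, 2 residual and 2.73 prior degrees of freedom). The fit was also run on simulated arrays. The shifts added there were all larger than any member difference, so that run cannot speak to differences of the size described here. Differences are miR-490 minus control means. Members, lists and motifs were chosen with earlier results of these data known. Named genes were every member probe set, the 3 sets with the smallest p in each list, and the 3 sets nearest to CEMIP, HYAL3 and CD44. Of the 47 genes in the lists, 43 were measured and the others were not analysed here. Endothelial markers had means of 3.12 to 5.29 and neuron markers 4.08 to 8.58, in the brightest probe set of each gene. Alternatives were quantile normalisation, median centring, an intensity trend (also with a robust prior), probe sets above the median, 1 probe set per gene, the replicate number as a block and each array left out. Figures were drawn with matplotlib 3.10.9.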

Additional observations from a re-analysis of the deposited data

How the results depend on the processing

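With all arrays kept, 0 sets passed the adjusted threshold under each alternative, over all probe sets and over the pathway lists. The smallest adjusted p was 0.335, under a trend with a robust prior (limma). Where no probe set was left out either, 1936 to 2549 of 49293 sets had an unadjusted p under 0.05 (limma). The filters tested fewer sets, with 1209 of 24637 above the median and 1121 of 18134 with 1 probe set per gene. Fits with 1 array left out are given by their differences only. The median difference of the members was -0.04 and went from -0.08 to -0.005 with 1 array left out, and 7 to 9 of the 21 sets had a higher mean; with 1 probe set per gene it was 3 of 6, fewer by construction, and the median turned to 0.0025. Of 168 alternatives of the 21 single differences, 15 changed sign, 2 came to 0, and 10 sets kept their sign throughout. The 168 include the replicate block, the sets above the median and 1 probe set per gene, which cannot change the difference of a set. All 15 sign changes came with 1 array left out, so the share of 168 is no measure of how stable the signs are. Same-numbered arrays deviated together at -0.084 across probe sets, and the labels do not say that they were prepared together; with the replicate block 0 sets passed, 1936 had an unadjusted p under 0.05, the median member difference was -0.04 and 8 member sets were higher. HAS3 and the second CEMIP set are dim, at levels where the typical gap between replicates was wider than over all probe sets. Detection calls were not used here.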
